A study of Mus musculus with 18 samples.

Results

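Control eyecups of *rd1* mice were examined on their own, to describe the baseline transcriptome of the retinal pigment epithelium (RPE) in an eye that has lost its rods. The members were the 9 libraries whose treatment label is NRF2_CTL, of 18 libraries in the series, and no treated eye entered any value given here. All 9 are labelled *rd1* at P40, with 1 control eye from each of 9 animals by their individual numbers. The study's methods name fewer pairs of *rd1* eyes at that age, and separate pairs from CD1 mice, and both together equal the number of pairs labelled here. That conflict was not resolved, so every n of 9 and the strain of each eye rest on the labels. The slopes and correlations over the 9 eyes may mix 2 strains. The *rd1* mouse carries a loss-of-function mutation in *Pde6b*, and the study's methods name FVB/N as its source, a strain that is albino. Each control eye had received AAV Best1 GFP only, in which the human Best1 promoter drives green fluorescent protein in RPE cells, so every value comes from virus-injected eyes. Eyes were screened for GFP before dissection. Per the study's methods, retina was removed, the cleaned eyecup went into RNA Protect, and RNA was purified from the supernatant. The study calls it RPE RNA and amplified it with a low-input poly(A) kit. The cells were not sorted, so RNA of other eyecup cells can be in each library.

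The RPE is the pigmented monolayer between the photoreceptors and the choroid. It regenerates the chromophore of the visual pigments in the visual cycle, engulfs shed outer segments, moves ions, lactate and glucose across the outer blood-retina barrier, and secretes proteins toward the retina and Bruch membrane. In the *rd1* eye the rods die early and the cones are lost later, so the RPE comes to face an outer retina that holds cones but almost no rods.

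The marker genes of the RPE separated into 3 that were abundant and 1 that was nearly absent. *Rpe65* (ENSMUSG00000028174; GRCm38 chr3:159599175-159625321, + strand) encodes the isomerohydrolase of the visual cycle and had 2577 ± 1403 TPM (reads per length of gene, scaled to the same sum in every library; SD, n = 9), the 26th highest mean among 21684 protein-coding nuclear genes. *Rlbp1* (ENSMUSG00000039194; chr7:79374870-79387048, − strand), which encodes the retinaldehyde-binding protein CRALBP, had 2040 ± 1159 TPM (SD, n = 9) and ranked 32nd. *Ttr* (ENSMUSG00000061808), which encodes the thyroxine and retinol-binding protein carrier transthyretin, had 22061 ± 13806 TPM (SD, n = 9) and ranked 3rd. *Best1* (ENSMUSG00000037418; chr19:9985174-10001633, − strand), which encodes the bestrophin channel, had only 1.43 ± 0.727 TPM (SD, n = 9) and ranked 12454th, with 17 to 100 counts per library. Thus, 3 of the 4 markers of the labelled cell type were abundant, whereas endogenous *Best1* was barely detected although its human promoter drove the vector. The libraries were not RPE alone. In eye 8, 18 genes of the corneal and conjunctival epithelium took 8.19% of counts and 66 genes of RPE lists only 4.21%.

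The 250 bases before the RefSeq start of *Rpe65*, *Rlbp1* and *Best1* are shown because *Rpe65* and *Rlbp1* varied together between eyes. *Best1*, at few counts, showed no correlation with them, which its counting error could hide. *Krt12* is shown as the most abundant gene of the corneal epithelium. The sequences are from RefSeq on GRCm38.p6, each written 5′ to 3′ on the strand of its gene. Capitals mark the letters found when CATGTG, an E-box form that MITF can bind, was searched on both strands. They also mark any CACGTG, the other E-box form that MITF can bind. The third motif searched was TAATCC, a form that OTX2 can bind. They lie at chr3:159598931-159599180 (+ strand), chr7:79387028-79387277 (− strand), chr19:10001634-10001883 (− strand) and chr11:99422260-99422509 (− strand), in the order given. The gene bounds given above are from GENCODE, whose starts differ, and the windows of *Rpe65* and *Rlbp1* reach 6 and 21 bases into those bounds.
*Rpe65*: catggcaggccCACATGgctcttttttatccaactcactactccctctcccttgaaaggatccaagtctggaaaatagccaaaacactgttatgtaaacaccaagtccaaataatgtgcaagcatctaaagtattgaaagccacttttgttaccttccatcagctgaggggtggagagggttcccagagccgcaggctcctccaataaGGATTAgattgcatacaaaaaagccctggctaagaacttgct
*Rlbp1*: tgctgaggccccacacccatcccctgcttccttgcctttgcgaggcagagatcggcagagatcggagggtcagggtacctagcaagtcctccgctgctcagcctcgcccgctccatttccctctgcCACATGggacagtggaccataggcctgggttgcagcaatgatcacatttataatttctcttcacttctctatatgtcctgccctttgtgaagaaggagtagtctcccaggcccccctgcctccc
*Best1*: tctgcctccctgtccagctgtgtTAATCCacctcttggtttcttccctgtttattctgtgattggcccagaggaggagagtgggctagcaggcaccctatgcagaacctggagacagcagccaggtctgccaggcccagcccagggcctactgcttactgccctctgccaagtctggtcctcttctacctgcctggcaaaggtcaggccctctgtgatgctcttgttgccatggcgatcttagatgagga
*Krt12*: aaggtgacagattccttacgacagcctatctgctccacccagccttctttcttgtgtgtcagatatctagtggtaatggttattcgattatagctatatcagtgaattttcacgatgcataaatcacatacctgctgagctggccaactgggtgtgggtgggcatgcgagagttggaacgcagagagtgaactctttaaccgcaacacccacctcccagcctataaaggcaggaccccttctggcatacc

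CATGTG was matched once upstream of *Rpe65*, at base 12 of the sequence, and once upstream of *Rlbp1*, at base 127, in each case on the opposite strand. The OTX2 form TAATCC was matched at base 209 upstream of *Rpe65*, on the opposite strand, and at base 24 upstream of *Best1*. The palindrome CACGTG was in none of the 4 sequences, and the *Krt12* sequence held no match. No matches overlapped. Among 32817 promoter windows of the same length, 12.3% held CATGTG. The share was 6.02% for CACGTG. For the OTX2 form it was 6.25%, so single matches are common.

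Library totals ranged from 18956748 counts in eye 8 to 44054836 in eye 9, with a median of 35278998. Between 24104 and 27911 genes had at least 1 count. No libraries looked like duplicates, since the smallest chi-square over its degrees of freedom was 49.5 among the 36 pairs. Eye 8 had the smallest total, and eyes 3, 5 and 8 gave 22.1%, 18.5% and 18.95% of their counts to their 10 most abundant genes, where the others gave 10.8% to 13.9%. Protein-coding genes took 88.8% of counts in eye 3, 90.5% in eye 8 and 93.0% in eye 5, and 95.2% to 97.4% in the others. The labels mention 2 sequencing runs without assigning libraries to them, and a run effect could not be examined. Reads were amplified without molecular identifiers, so any precision drawn from counts leaves out amplification error.

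The 3 most abundant messages encoded secreted proteins. *Ptgds*, the prostaglandin D2 synthase that also carries retinoids, was highest, with a lowest, median and highest eye of 8630, 39819 and 48627 TPM. *Cst3*, the secreted protease inhibitor cystatin C, followed at 8877, 33129 and 53201 TPM, and *Ttr* was at 6544, 20632 and 48330 TPM. These 3 were the only genes among the 20 most abundant in all 9 eyes, and 45 genes reached that list in at least 1 eye. Their order was only partly resolved. *Ptgds* was above *Cst3* in 6 of 9 eyes, *Cst3* was above *Ttr* in 9 of 9, and *Ttr* was above *Trf* in 5 of 9.

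*Trf*, which encodes the iron carrier transferrin, ranked 4th at 14653 ± 8256 TPM (SD, n = 9), although 63.9% of its 31-base words also occur in other annotated genes, which makes its level less certain. Keratin 12 (*Krt12*, 11962 ± 11814 TPM), thymosin beta 4 (*Tmsb4x*, 9979 ± 5912 TPM), apolipoprotein E (*Apoe*, 7646 ± 2846 TPM) and keratin 15 (*Krt15*, 6718 ± 3698 TPM) came next. Clusterin (*Clu*) was at 6376 ± 2779 TPM, the cytochrome oxidase subunit *Cox8b* at 5984 ± 5721 TPM, the glutathione transferase *Gsto1* at 5826 ± 3794 TPM and ferritin light chain (*Ftl1*, 64.1% shared words) at 5769 ± 1724 TPM. Neighbouring places in this stretch mostly did not separate, since each gene from *Trf* to *Ftl1* exceeded the next in 4 to 6 of 9 eyes.

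The last 8 of the 20 mixed RPE genes with others. Basigin (*Bsg*, 5669 ± 2373 TPM), the partner of the lactate transporters, the opsin *Rgr* (4476 ± 2416 TPM), the lysosomal protease *Ctsd* (3983 ± 2192 TPM; 33.2% shared words) and *Arl6ip1* (3770 ± 1498 TPM), a shaper of the endoplasmic reticulum, were among them. The others were the corneal crystallin *Aldh3a1* (5035 ± 4761 TPM), metallothionein 1 (*Mt1*, 4325 ± 4071 TPM), *S100a11* (3957 ± 2535 TPM; 48.9% shared words) and the glutathione transferase *Gsta4* (3455 ± 1761 TPM). The SD was close to the mean for *Krt12*, *Cox8b*, *Aldh3a1* and *Mt1*, which were among the 20 most abundant genes in 6, 5, 5 and 3 of 9 eyes. Ranked by CPM (counts relative to the scaled library total), with no correction for length, 16 of the 20 stayed, and *Lars2*, *Rdh5*, *Aqp5* and *Krt5* entered. *Lars2* was far higher in eye 8 than in the others, at 15.94 log2 CPM against 11.58 in the next eye.

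**Figure D1:**
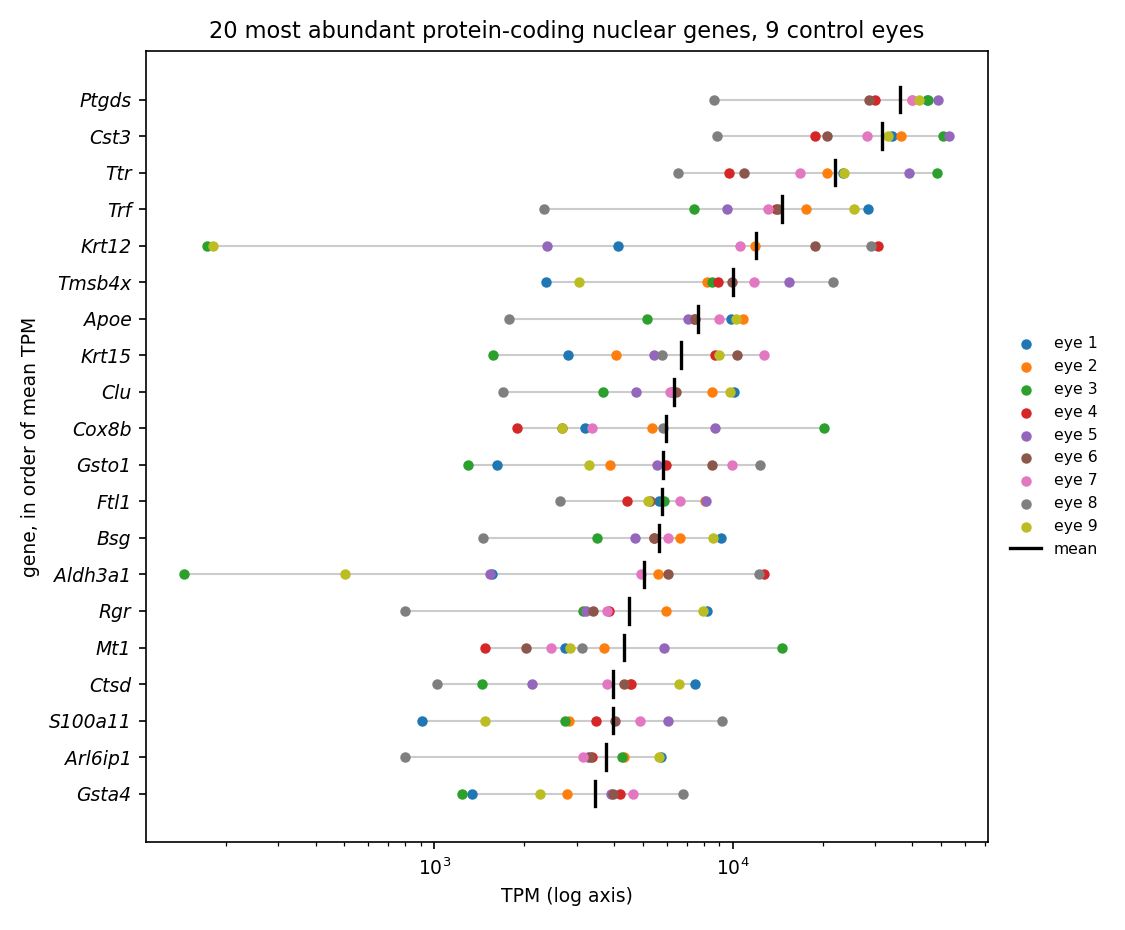
TPM of the 20 most abundant protein-coding nuclear genes in control *rd1* eyecups (log axis), with a point for each of the 9 eyes and a bar at the mean. *Ptgds*, *Cst3* and *Ttr* lead, and *Krt12* spans the widest fold range of the 20, from 174 to 30604 TPM.

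Expression was concentrated. The 10 most abundant genes held 20.5% of TPM in the median eye (range, 16.5% to 29.5%), the top 100 held 39.4% (36.6% to 53.5%) and the top 1000 held 70.2% (66.1% to 82.8%). The 66 genes of 7 RPE lists (markers, visual cycle, melanin pigment, transcription factors, outer segment phagocytosis, transport and secreted proteins) took 12.1% of all counts on average. The lowest, median and highest eyes gave 4.21%, 13.7% and 17.02%, and eye 8 was the lowest. In bulk tissue, fewer cells of a type and less RNA per cell cannot be told apart.

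Among the RPE groups, secreted proteins had the largest share of counts at 6.58 ± 2.37% (SD, n = 9), most of it *Ptgds*, *Cst3*, *Apoe* and *Clu*. The metalloproteinase inhibitor *Timp3* was at 810 ± 618 TPM and autotaxin (*Enpp2*) at 529 ± 407 TPM, whereas pigment epithelium-derived factor (*Serpinf1*) was at only 23.8 ± 13.8 TPM (SD, n = 9). Metallothioneins and ferritin-related genes took 2.91 ± 0.842%, lysosomal genes 1.52 ± 0.461%, nuclear oxidative phosphorylation genes 2.50 ± 1.48% and the antioxidant genes 0.947 ± 0.200%. The 13 messages encoded by mitochondrial DNA took 2.20 ± 0.764% of counts. Cytosolic ribosomal protein genes took 1.14 ± 0.645% and glycolytic enzymes 0.737 ± 0.149%.

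All 10 visual cycle genes passed the filter on low counts, and together they took 1.80 ± 0.684% of counts (SD, n = 9). The retinal G protein-coupled receptor *Rgr*, an RPE opsin, was highest per length. The 11-cis retinol dehydrogenase *Rdh5* was at 2762 ± 1062 TPM. The retinol dehydrogenase *Rdh10* was at 860 ± 622 TPM, the retinol-binding protein receptor *Stra6* at 344 ± 331 TPM, the retinyl ester synthase *Lrat* at 307 ± 249 TPM and peropsin (*Rrh*) at 174 ± 84.4 TPM. *Dhrs3* (78.4 TPM) and *Rdh11* (72.6 TPM), which reduce or oxidize retinoids more widely, and the serum carrier *Rbp4* (4.74 TPM) were the least abundant. Eye 8 was the lowest for *Rgr*, *Rdh5*, *Rdh10*, *Stra6*, *Lrat*, *Rrh*, *Rdh11* and *Rbp4*.

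The 9 melanin pigment genes took 0.607 ± 0.183% of counts (SD, n = 9), and all passed the filter. The melanosome matrix gene *Pmel* was at 1301 ± 849 TPM, dopachrome tautomerase (*Dct*) at 1020 ± 267 TPM, *Mlana* at 972 ± 590 TPM and *Tyrp1* at 807 ± 465 TPM. Tyrosinase (*Tyr*), the enzyme of the first step of melanin synthesis and the gene mutated in albino mice, was transcribed at 73.8 ± 41.8 TPM. The exchanger *Slc24a5* was at 347 ± 128 TPM, and the melanosome proteins *Gpr143*, *Oca2* and *Slc45a2* were at 121, 102 and 32.3 TPM. These transcripts come from albino animals if the strain is FVB/N, and a transcript level does not measure pigment.

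Of the 6 RPE transcription factors, *Otx2* was the most abundant at 237 ± 119 TPM (SD, n = 9) and *Tfec* the least at 0.711 ± 0.832 TPM, below the count filter. *Sox9* was at 140 ± 91.6 TPM, *Pax6* at 59.2 ± 35.8 TPM, *Lhx2* at 45.8 ± 26.9 TPM and *Mitf*, the regulator of pigment cell identity, at 31.4 ± 14.2 TPM. *Pax6* ran the other way from the rest in eye 8, where it was highest at 1121 CPM against a median of 245 CPM. Eye 8 also had the largest share of corneal genes, 8.19% of counts. Which cells gave this *Pax6* RNA was not tested.

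Transport genes took 1.20 ± 0.446% of counts (SD, n = 9), led after *Bsg* by the basolateral lactate transporter *Slc16a8* (2019 ± 1254 TPM), the potassium channel *Kcnj13* (1280 ± 540 TPM) and the carbonic anhydrase *Car14* (1255 ± 519 TPM). The apical lactate transporter *Slc16a1* was at 367 ± 312 TPM and the glucose transporter *Slc2a1* at 676 ± 373 TPM. Phagocytosis genes were much scarcer, at 0.103 ± 0.0383% of counts. Their most abundant members were the bridging ligand *Gas6* (270 ± 162 TPM) and the integrin subunit *Itgb5* (158 ± 118 TPM), while the receptor kinase *Mertk*, which triggers engulfment, was at 39.3 ± 33.3 TPM.

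Rod genes were uneven in level, and cone genes were detected in every eye. Of 13 rod genes 8 passed the filter on low counts. *Pde6b*, the gene mutated in *rd1*, had a lowest, median and highest eye of 0, 0.390 and 0.552 CPM, and the rod regulator *Nrl* was at 0 counts in 4 eyes. Other rod genes were well above 0. The rod transducin subunit *Gngt1* was at 10.03, 45.5 and 299.7 CPM and the phosphodiesterase subunit *Pde6g* at 14.95, 74.3 and 134 CPM. Arrestin (*Sag*), which cones also express, was at 39.7, 83.0 and 420 CPM, and the outer segment protein *Rom1*, also shared with cones, at 64.8, 155 and 218 CPM. Among cone genes, *Opn1sw* was at 23.3, 111 and 702 CPM, *Opn1mw* at 18.2, 68.9 and 492 CPM, cone arrestin (*Arr3*) at 36.5, 85.1 and 371 CPM and cone transducin (*Gnat2*) at 35.2, 86.2 and 270 CPM. Eye 9 was highest for *Opn1mw*, *Arr3* and *Gnat2*, and eye 1 for *Opn1sw*. The 11 cone genes took 0.0329% to 0.252% of counts per eye and the 13 rod genes 0.0197% to 0.0971%.

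Other cell types gave small shares. Lens genes took 0.0524% to 0.339% of counts, Müller glia and astrocyte genes 0.0681% to 0.192%, and hemoglobin and other red blood cell genes 0.0344% to 0.283%. Inner retina neurons gave 0.0131% to 0.0535%, fibroblasts and sclera 0.0192% to 0.0715%, endothelium 0.00923% to 0.0211%, macrophages and microglia 0.0170% to 0.0555%, and lymphocytes at most 0.000918%. Pericytes and smooth muscle gave 0.0217% to 0.154%, Schwann cells 0.0249% to 0.131%, and skeletal muscle 0.00537% to 0.0755%. These lists differ in length and in how abundant their genes are, so the shares are not numbers of cells.

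Genes of the corneal and conjunctival epithelium formed the largest group from outside the RPE. A list of 18 such genes, chosen after the values of *Krt12* and *Aldh3a1* had been seen and therefore given only as a description, took 3.22 ± 2.57% of counts (SD, n = 9), with a lowest, median and highest eye of 0.403%, 2.69% and 8.19%. Eyes 3, 1 and 9 were low and eyes 4 and 8 were high. *Krt12* (GRCm38 chr11:99415666-99422259, − strand), the keratin of corneal epithelium, was at 109, 7573 and 35701 CPM, a 327-fold range. Its locus overlaps *A830036E02Rik* (chr11:99416956-99425497, + strand), and reads of the 2 cannot be told apart without strand. *Aldh3a1* was at 215, 3706 and 15874 CPM, the basal keratin *Krt5* at 458, 2102 and 7626 CPM, and the water channel *Aqp5* at 387, 2904 and 11318 CPM. Eye 8 was highest for *Krt12*, *Aldh3a1*, *Krt5* and *Aqp5*. How this tissue came to be in the libraries was not tested.

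**Figure D2:**
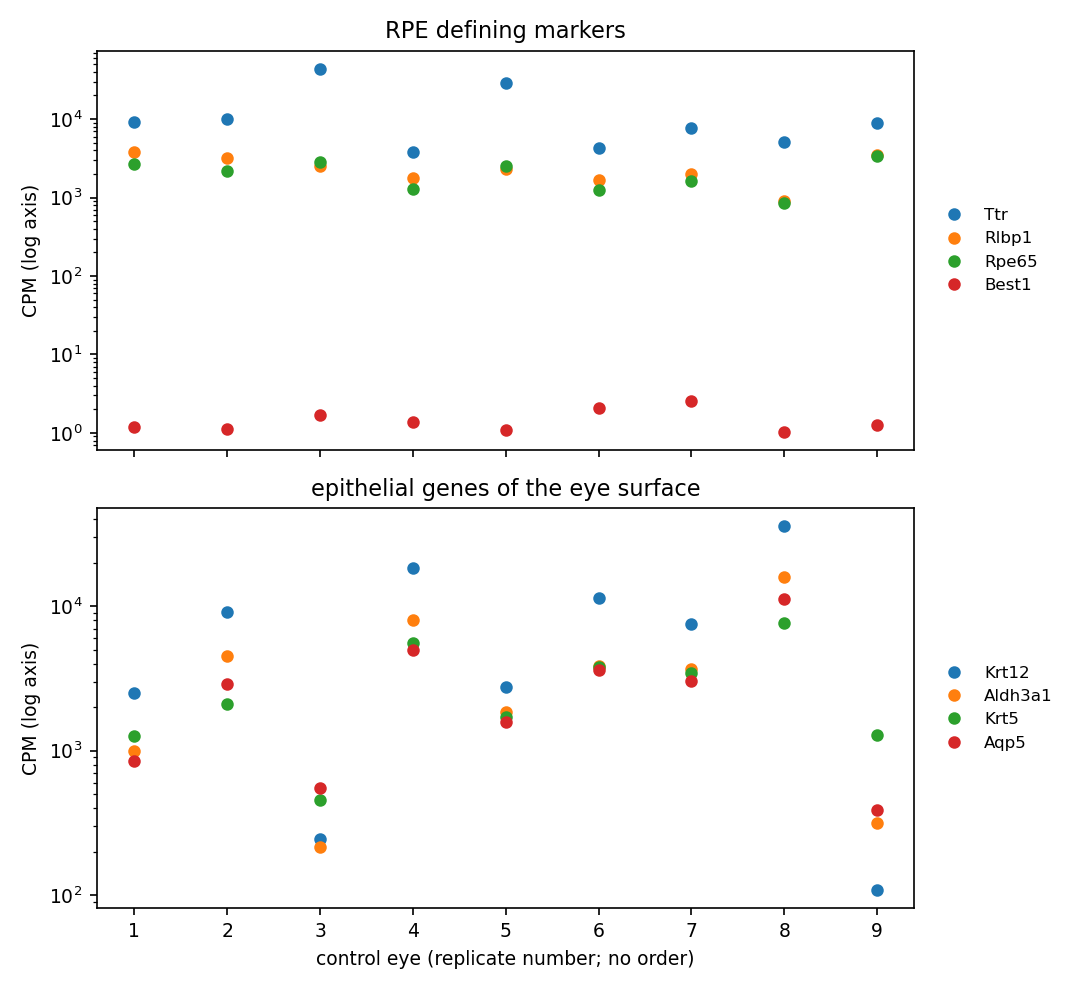
CPM (log axis) in each of the 9 control eyes for the RPE genes *Ttr*, *Rlbp1*, *Rpe65* and *Best1* (top) and the corneal epithelium genes *Krt12*, *Aldh3a1*, *Krt5* and *Aqp5* (bottom). *Best1* lies below 3 CPM in every eye, and eye 8 is the highest for all 4 corneal genes and the lowest for *Rpe65*, *Rlbp1* and *Best1*.

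Among the markers, *Rpe65* was at 856, 2195 and 3356 CPM in the lowest, median and highest eye, a 3.92-fold range. *Rlbp1* was at 895, 2308 and 3836 CPM (4.29-fold) and *Best1* at 1.02, 1.28 and 2.58 CPM. *Ttr* ranged more widely, at 3758, 9034 and 43633 CPM (11.6-fold), with eyes 3 and 5 far above the rest. As a description over 9 eyes that share depth and composition differences, log2 CPM of *Rpe65* correlated with *Rlbp1* at r = 0.91 and with *Ttr* at r = 0.69, and *Rlbp1* with *Ttr* at r = 0.42. *Best1* correlated with none of them (r = -0.13, -0.07 and -0.11). At 1.02 to 2.58 CPM, counting error can hide a correlation, so these r values do not show that *Best1* varied independently.

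The genes nearest to each marker in log2 CPM differed between markers. For *Rpe65* they included *Anp32e* (r = 0.96), *Endou* (0.96), the peroxisome gene *Pex11a* (0.96) and *Rrh* (0.96). *Rlbp1* was closest to *Tes*, *Fez2*, *Pla2g7*, *Clba1* and the phospholipid transfer protein *Pltp*, with r from 0.98 to 1.00. *Calm3*, *Rd3l*, *Mt3* and *Arl3* were among the closest to *Ttr*, each with r = 0.99. *Best1* had no near neighbour, since its highest r values were 0.84 with *Pcyt2* and 0.82 with *Tmem191c*, although its few counts can lower any r. These genes were picked as the highest r among 7376 genes with a mean of at least 20 CPM and are given without a test.

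The spread between eyes differed widely between genes. Over 7376 genes with a mean of at least 20 CPM, the median coefficient of variation was 36.1% (25th to 75th percentile, 24.5% to 54.8%). The steadiest were *Lims1* (4.44%; 83.2 to 96.2 CPM), an adaptor of focal adhesions, the SNARE *Snap23* (4.88%) and the small GTPase *Rab1a* (5.29%), followed by *March5*, *Dnajc7*, *Acaa1a*, *Aptx*, *Rnf25*, *Insig2* and *Map2k2* (up to 7.42%). The 10 most variable genes were *Tmem170* (271%), *Gm15564* (268%), *Lars2* (264%), *Gm24270*, *Gm24245* and *Gm23935* (258% each), *Gm12895* and *Gm12896* (250% each), *Mir6236* (246%) and *AA474408* (243%). All 10 were highest in eye 8. The mitochondrial leucyl-tRNA synthetase gene *Lars2* reached 62985 CPM there, against 3063 CPM in the next eye. Words shared with other genes made up 100% of *Gm24270*, *Gm24245* and *Gm23935* and 99% of *Gm12895* and *Gm12896*, so these are not separate measurements.

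To ask which genes varied with the level of RPE markers, a slope on the mean log2 CPM of the 4 markers was fitted to each gene over the 9 eyes. A slope of 1 means that a gene doubled when the score rose by 1. The score ran from 8.00 in eye 8 to 9.75 in eye 3. By edgeR's quasi-likelihood test, 946 of 15406 genes (6.14%) had an adjusted p under 0.05, of which 307 (1.99%) rose with the score and 639 (4.15%) fell. The count depended on single eyes: it was 619 without eye 2, 301 without eye 3, 371 without eye 4, 564 without eye 5, 402 without eye 6 and 622 without eye 7. Without eye 8, 1286 genes passed, of which 778 rose, so the excess of falling genes rested on that library. The score also rested on which markers made it. A score of *Rpe65* and *Rlbp1* alone, added after seeing the data, called 744 genes, of which 372 were among the 946.

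Of 54 named genes called in this test, 11 were called in every one of the 9 fits that left out an eye. They were *Krt5*, *Trp63*, *Sfn*, *Dsg1a*, *Upk1b*, *Tgfbi*, *Junb*, *Zfp36* and *Oasl2*, which fell, and *Prr5l* and *Nrn1l*, which rose. Leaving out eye 3 ended 34 of the 54 calls, eye 4 ended 29, eye 6 ended 26, eye 8 ended 24, eye 7 ended 19, eye 5 ended 16, eye 2 ended 15, eye 9 ended 9 and eye 1 ended 6. No call on a visual cycle, transport or secreted gene was among the 11. With the score of *Rpe65* and *Rlbp1* alone, 31 of the 54 calls were lost, among them *Prr5l*, *Nrn1l* and *Dsg1a* of the 11, and *Rdh5*, *Ptgds*, *Cst3*, *Pde6h* and *Krt12*. Neither of the rises among the 11 was thus called with that score.

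Of 10 visual cycle genes 3 rose with the score, against 1.99% of all genes, and none fell. The median slope of the 10 was 1.07, where the median over all genes was 0.07. It was higher for photoreceptor lists, at 1.61 over 11 cone genes and 1.25 over 8 rod genes. *Rdh5* was at 1127, 3630 and 5355 CPM in the lowest, median and highest eye and had a slope of 1.19 ± 0.27 (SE, n = 9; adjusted p = 0.0288, edgeR). *Rrh* was at 142, 518 and 576 CPM with a slope of 1.15 ± 0.28 (adjusted p = 0.0368, edgeR). Both *Rdh5* and *Rrh* were lowest in eye 8, and *Rdh5* was highest in eye 3. *Rgr* had a slope of 1.26 (adjusted p = 0.0657, edgeR) and did not pass. That count did not hold: none of the 10 passed without eye 4, 5, 6 or 7 or with no count filter, and 1 passed without eye 2 or 3. In those fits 0.211% to 0.959% of all genes rose, and the median slope of the 10 was 1.08 to 1.43. Without eye 8 the median slope of the 10 genes was 0.55, and 1 gene passed, where 4.89% of all genes rose. With the score of *Rpe65* and *Rlbp1* 5 of the 10 rose (1.51% of all genes), and with the oxidative phosphorylation score as a further term 8 rose (14.9% of all genes).

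Calls in the other RPE groups were few, and 1 call in a list of 5 to 14 genes does not set it apart from the 1.99% of all genes that rose. Among secreted genes 3 of 13 rose, namely *Ptgds* (slope, 1.41), *Cst3* (1.63) and the signalling ligand *Bmp4* (1.32), at a median slope of 0.79, or 0.46 without eye 8. None of the 13 passed without eye 3 or 6 or with no count filter, where 0.218%, 0.409% and 0.211% of all genes rose. The median slope of the 13 was 1.14, 0.94 and 1.00 in those fits. Without eye 2, 4, 7 or 8, 1 passed, where 0.959%, 0.304%, 0.835% and 4.89% of all genes rose. Of 14 transport genes only *Kcnj13* rose (1.22), at a median of 0.74 that was 0.10 without eye 8. None of the 14 passed without any of eyes 3 to 8 in turn, where 0.218% to 4.89% of all genes rose. Of 5 tested transcription factors only *Mitf* rose (1.15). None of 9 melanin genes passed (median slope, 0.55, and -0.20 without eye 8) and none of 9 phagocytosis genes (0.30). In the lysosome list *Cd63* (1.35) and *Npc2* (0.82) rose among 16 genes, and in the metal list *Mt3* (1.75) rose among 8. Of the 9 fits that left out an eye, *Cd63* was called in 2, *Npc2* in none and *Mt3* in 6. With the oxidative phosphorylation score as a further term, where 14.9% of all genes rose, 11 of the 14 transport, 9 of the 13 secreted and 4 of the 9 melanin genes rose. In the 4-marker fit none of 25 antioxidant, 17 glycolysis or 13 fatty acid oxidation genes passed. The largest rises at a mean log2 CPM of 4 or more were the cone phosphodiesterase subunit *Pde6h* (slope, 2.38), *Nrn1l* (2.23; 64.9% shared words), the rod transducin subunit *Gngt1* (2.20), *Prr5l* (2.03) and *Fermt2* (1.98). *Arl6ip1*, of the 20 most abundant genes, also rose (1.30).

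Of the 18 corneal epithelium genes, 13 fell as the score rose and none rose, at a median slope of -1.78, where 4.15% of all genes fell. Of the 18, 7 fell without eye 8 (3.2% of all genes), 6 without eye 3 (1.72%) and 9 with the score of *Rpe65* and *Rlbp1* (3.32%). As the list was chosen after values had been seen, these counts describe it and are not a test of it. *Krt5* had a slope of -2.13 ± 0.34 (SE, n = 9; adjusted p = 0.00954, edgeR), and the basal epithelial regulator *Trp63* a slope of -1.54 ± 0.24 (adjusted p = 0.00922, edgeR). *Krt12* fell by 3.55 per unit on the log2 scale (adjusted p = 0.0416, edgeR). The largest falls were those of *A830036E02Rik* (-4.34), *Tmem170* (-3.72), *Slurp1* (-3.60), *Krt12* and *Myzap* (-3.32). The calls on *Tmem170* and *Myzap* were lost without eye 8, and those on *Krt12* and *Slurp1* in 7 of 9 fits that left out an eye. *Krt15* (slope, -0.66; adjusted p = 0.473, edgeR), among the 8 most abundant genes, did not pass.

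Some genes of the stress and growth lists also fell, where 4.15% of all genes did, so that 1 fall in a list of 10 or 16 genes does not set it apart. Of 11 immediate early genes 4 fell, namely *Junb*, *Ier2*, *Klf4* and *Zfp36*, at a median slope of -0.56. Without eye 8, 2 of them fell (3.2% of all genes). *Junb*, an AP-1 subunit, was at 25.4, 115 and 281 CPM, lowest in eye 3 and highest in eye 8 (slope, -1.83 ± 0.27; adjusted p = 0.00839, edgeR). Of 18 sterol synthesis genes 3 fell, among them *Lss* (-1.38), at a median of -0.66 over the list. The count was 6 without eye 8 (3.2% of all genes fell) and 1 without eye 3 (1.72%). Without eye 2, 4, 5, 6, 7 or 9 it was 2 (2.09% to 3.19%). It was 9 with DESeq2 (7.25%) and 11 with log2 library total as a further term (8.86%). The heat shock genes *Hspa1a* (-1.87) and *Hspa1b* (-1.996) fell among 12. The median of that list had no fixed sign, at 0.15 in all 9 eyes and -0.56 without eye 8. None of the 12 passed without eye 4, where 2.09% of all genes fell and 0.304% rose. Also falling were the interferon-induced *Irf7* (-1.37), *Oas1a* (-1.45) and *Oasl2* (-1.52) among 14. In the 9 fits that left out an eye, *Irf7* was called in 2, *Oas1a* in 4 and *Oasl2* in 9. The proliferation genes *Mki67* (-1.71) and *Top2a* (-2.19) fell among 16. None of the 16 passed without eye 4 or 6, where 2.09% and 2.2% of all genes fell. Single falls went against the median of their lists, namely the macrophage integrin *Itgam* (-1.58) among 16 with a median of 0.51 and the matrix gene *Tgfbi* (-2.50) among 10 of the mesenchymal list with a median of 0.49. In the junction list *F11r* (-1.68) and *Cdh1* (-1.42) fell while *Krt18* (0.88) rose, among 10. None of these passed without eye 3, where 1.72% of all genes fell and 0.218% rose. The share of counts in corneal genes ran in the same eyes, from 0.403% in eye 3 to 8.19% in eye 8, and its part in these falls was not tested.

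**Figure D3:**
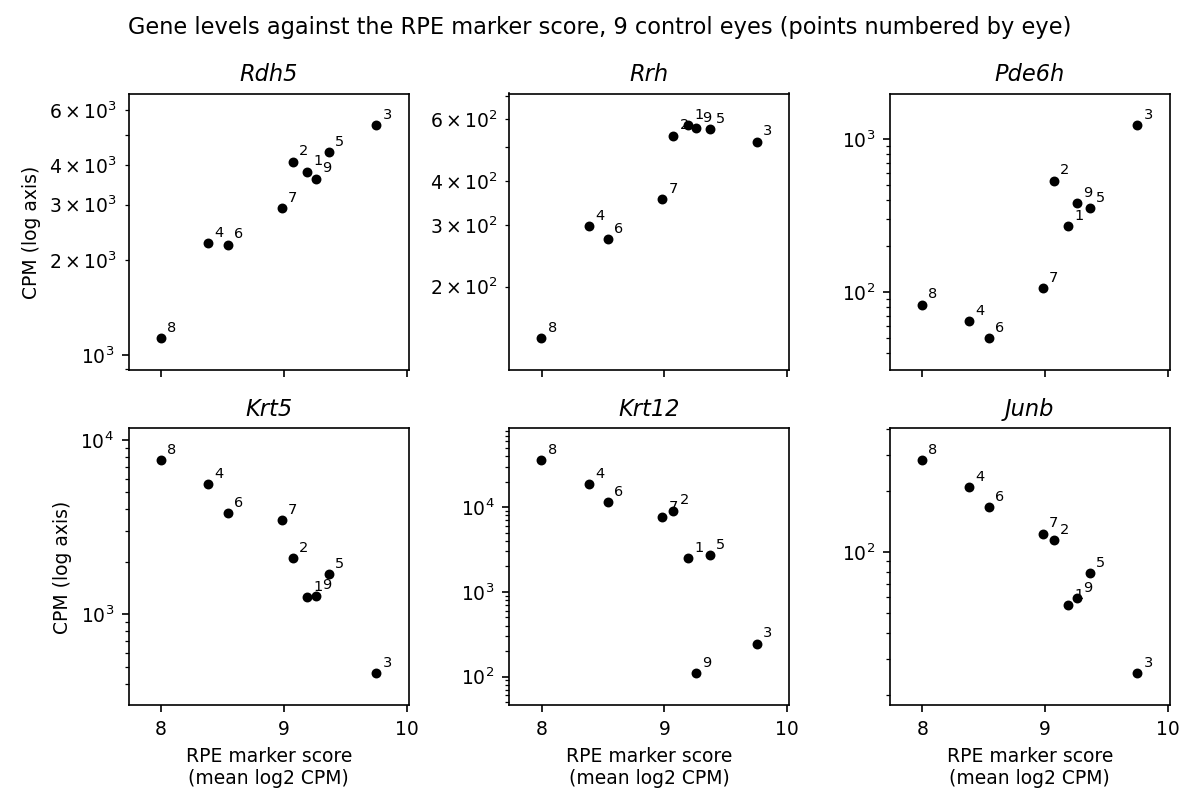
CPM (log axis) against the RPE marker score (mean log2 CPM of *Rpe65*, *Rlbp1*, *Ttr* and *Best1*) for *Rdh5*, *Rrh*, *Pde6h*, *Krt5*, *Krt12* and *Junb*, with a numbered point for each eye. *Rdh5*, *Rrh* and *Pde6h* rise from eye 8 (score 8.00) toward eye 3 (score 9.75), and *Krt5*, *Krt12* and *Junb* fall.

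Genes of energy metabolism depended on which eyes were fitted. Of 83 nuclear oxidative phosphorylation genes, *Cox4i2* (1.65) and *Cox6b2* (1.73) rose with the score at a median slope of 1.03. That count is near the 1.99% of all genes that rose. It became 48 of 83 when eye 8 was left out (4.89% of all genes) and 68 with log2 library total as a further term (14.5% of all genes). None of the 83 rose without eye 3, 4 or 6 or with the score of *Rpe65* and *Rlbp1* (0.218%, 0.304%, 0.409% and 1.51% of all genes). None of 82 ribosomal protein genes passed (median slope, -0.02), whereas 10 rose without eye 8 and 56 with log2 library total as a further term. With the oxidative phosphorylation score as a further term, 79 of 82 ribosomal protein genes fell, where 14.6% of all genes did, so the direction for ribosomal proteins was not fixed by these data.

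A score from photoreceptor genes was associated with almost nothing else. By edgeR's quasi-likelihood test on a score of rod and cone genes (mean log2 CPM), 1 of 15391 genes (0.0065%) passed and 1313 had an unadjusted p under 0.05. The gene was recoverin (*Rcvrn*), a calcium sensor of photoreceptors, at 5.19, 13.5 and 46.3 CPM in the lowest, median and highest eye (slope, 1.25 ± 0.15; SE, n = 9; adjusted p = 0.0415, edgeR). The p values of the score's own genes took part in that adjustment, and with them left out *Rcvrn* no longer passed (adjusted p = 0.081, edgeR). The call was also lost without each of eyes 1, 2, 4, 5, 6, 7, 8 and 9 in turn. DESeq2 called 118 genes for the same score.

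Scores of whole lists were then correlated between eyes, for 18 lists, log2 library total and the share of the 10 most abundant genes, which makes 190 pairs. By an exact permutation test, two-sided, 5 pairs passed after adjustment with Pearson's r and 3 with Spearman's rho, and 33 had an unadjusted p under 0.05 with Pearson's r. Mitochondrially encoded and nuclear oxidative phosphorylation genes moved together (r = 0.97, p = 0.000124, adjusted p = 0.0144; rho = 0.93, p = 0.00075, adjusted p = 0.0475; exact permutation), and r was 0.89 without eyes 3 and 5. In both lists eyes 3 and 5 were the highest. Immediate early and sterol synthesis genes also moved together (r = 0.91, p = 0.000303, adjusted p = 0.0144; rho = 0.87, p = 0.00451, adjusted p = 0.0779; exact permutation), and r was 0.94 without eyes 2 and 3.

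Of the other 3 pairs, 2 included the library total. RPE transport genes rose with log2 library total (r = 0.93, p = 0.000612, adjusted p = 0.0232; rho = 0.87, p = 0.00451, adjusted p = 0.0779; exact permutation; r = 0.82 without eyes 1 and 8). Ribosomal protein genes fell with it (r = -0.83, p = 0.0003, adjusted p = 0.0144; rho = -0.97, p = 0.000165, adjusted p = 0.0314; exact permutation; r = -0.98 without eyes 3 and 8). RPE transport and ribosomal protein genes ran against each other (r = -0.82, p = 0.000193, adjusted p = 0.0144; rho = -0.90, p = 0.00203, adjusted p = 0.0771; exact permutation; r = -0.78 without eyes 1 and 8). RPE markers and sterol synthesis passed with rho only (r = -0.87, p = 0.0022, adjusted p = 0.0597; rho = -0.93, p = 0.00075, adjusted p = 0.0475; exact permutation; r = -0.84 without eyes 4 and 8). RPE markers and the visual cycle did not pass (r = 0.83, p = 0.00484, adjusted p = 0.0677; rho = 0.70, p = 0.0433, adjusted p = 0.283; exact permutation), and r was 0.54 without eyes 4 and 8. Each of the 5 pairs kept its sign in every fit that left out an eye, and each lost its adjusted significance without at least 3 of the 9 eyes.

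**Figure D4:**
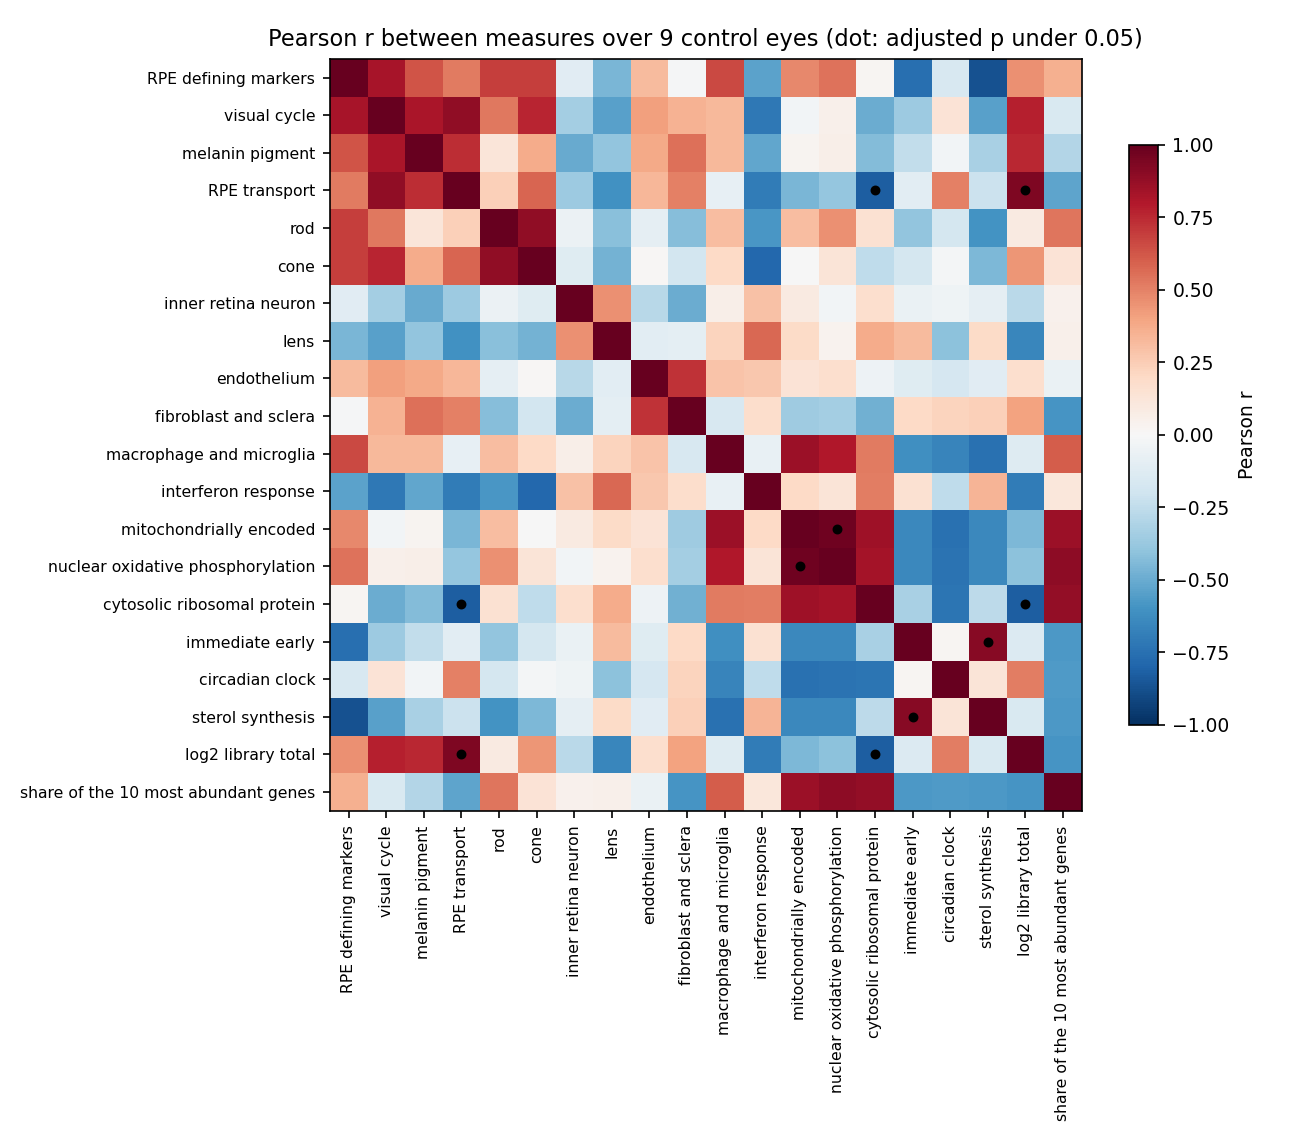
Pearson's r over 9 control eyes between 18 list scores, log2 library total and the share of the 10 most abundant genes. Dots mark the 5 of 190 pairs with an adjusted p under 0.05 by the exact permutation test, among them mitochondrially encoded against nuclear oxidative phosphorylation genes (r = 0.97).

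The length of genes moved with the same eyes. The shortest of 5 equal groups of tested genes (57 to 2180 bases of union exon) was compared with each gene's mean over the eyes. The median deviation over its genes was 0.53 log2 units in eye 3 and 0.52 in eye 5. It was -0.48 in eye 1, -0.39 in eye 9 and -0.37 in eye 4. Many oxidative phosphorylation, ribosomal protein and metallothionein genes are short. The part of gene length in the correlations of these lists was not tested.

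Within lists, genes varied together to very different degrees. Over all pairs of tested genes the median r was -0.00 and 9.88% of pairs exceeded 0.7. The median r was 0.98 for red blood cell genes, 0.95 for ribosomal protein, 0.94 for lens and for mitochondrially encoded genes, 0.93 for nuclear oxidative phosphorylation and 0.85 for corneal genes. It was 0.84 for skeletal muscle, 0.76 for cones, 0.72 for RPE transport, 0.69 for melanin and for the visual cycle, 0.65 for the cell cycle, 0.61 for sterol synthesis and 0.55 for abundant noncoding RNA. In the visual cycle 48.9% of pairs exceeded 0.7, in melanin pigment 50% and in RPE transport 51.6%. By contrast, the median r was 0.17 for the 4 markers, 0.22 for secreted genes, 0.25 for phagocytosis, 0.07 for antioxidant and -0.04 for heat shock genes, so these lists did not vary as a unit.

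**Figure D5:**
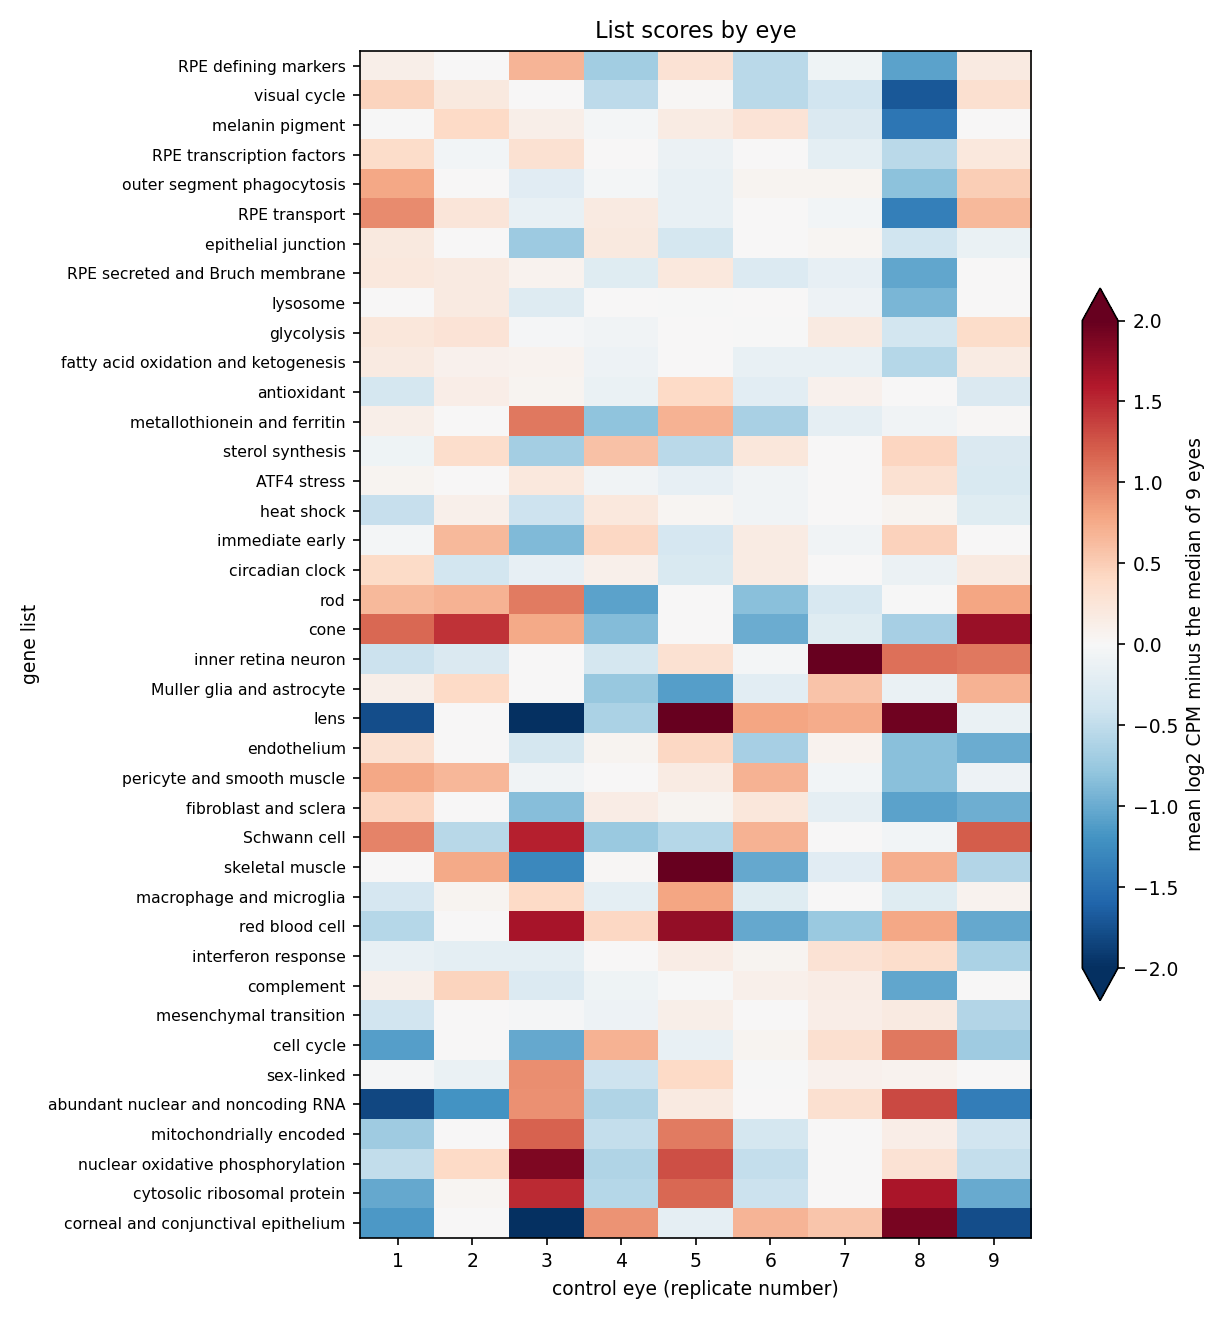
Mean log2 CPM of each gene list in each of the 9 control eyes, less the median of the 9 eyes, for lists with at least 4 tested genes. Eye 8 is low for the visual cycle, melanin, RPE transport and secreted lists and high for corneal genes, and eyes 3 and 5 are high for oxidative phosphorylation genes.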

How the data were processed

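RNA sequencing of RNA purified from eyecup supernatant was analysed in the 9 control libraries of *rd1* mice at P40, grouped by the treatment label. Per the methods, the authors used STAR with mm10 and Ensembl transcripts, then featureCounts, and in parallel Salmon (0.8.1 in the submitters' processing notes), whose estimates per gene, imported with tximport, were the counts they tested, beside FastQC. The values deposited are expected counts for Ensembl genes that were rounded but not normalized, and the sources used here do not tie the table itself to either counter. It lists 47729 genes, of which 13577 had no count in any control library. Symbols, lengths and coordinates for 47310 genes (99.9% of counts) are from GENCODE mouse release 21 on GRCm38, which may differ from the authors' annotation.

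Counts were scaled by TMM, 15410 genes kept by filterByExpr (99.5% of counts) were tested, and log2 CPM used a prior count of 2. TPM came from counts and union exon length. Slopes were tested with edgeR 4.0.16 in R 4.3.3 (glmQLFit, glmQLFTest), with Benjamini-Hochberg adjustment over all tested genes and a threshold of 0.05, and the genes that make a score were left out of its counts of calls. SEs are from the F statistic. Scores were correlated with exact permutation tests, adjusted over 190 pairs. Python 3.11.15, numpy 2.4.6, pandas 2.3.3 and matplotlib 3.10.9 were used for the rest. Uncertainty from shared reads is given as the share of 31-base words of a gene that other genes also hold. Numbers 1 to 9 in the labels were taken as separate *rd1* animals, although the methods name fewer *rd1* pairs at this age, and p values measure the spread between these eyes. Library totals of 18956748 to 44054836 counts set the precision.

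In simulated data for the RPE marker score over 14937 genes, 74 of 200 planted slopes were recovered. The share recovered was 6% at a slope of 1 and 68% at a slope of 2. Of the calls in the simulated data 7.5% were false, and slopes near 1 were seldom detected there. Whether these rates hold for the calls in the control eyes was not tested. The members, markers and gene lists were chosen with earlier results of these data known. Named are the 4 markers, the 20 most abundant genes, the 10 most and the 10 least variable genes, the 5 largest slopes in each direction, the 5 genes nearest each marker and list members as examples. *Arl6ip1* and the 11 genes called in every leave-one-out fit were named for their values. The alternatives were RLE and upper-quartile scaling, DESeq2 1.42.0, other count filters, library total as a further term, a prior count of 0.5, Spearman's rho, other lengths and leaving out each eye. Added after seeing the data were a score of *Rpe65* and *Rlbp1*, an oxidative phosphorylation term, a cone score, shares without eyes 3, 5 and 8, and leaving a score's genes out of the adjustment. Treated libraries were not used here. Some genes that these rules name are counted but not reported by name here.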

Additional observations from a re-analysis of the deposited data

Results flagged for a closer look

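Of 114 list scores, gene levels and library totals screened, 21 had 1 eye far from the other 8, and it was eye 8 each time. Chance flags about 1 in 20 such groups. These are not independent signs, since all come from 1 library, the one with the smallest total, and many of the genes belong to the same lists. Of the 21, 7 are genes named because they varied most, all highest in eye 8, so that choice largely fixed their place here and the chance rate does not apply to them. No explanation was tested.

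Eye 8 was the lowest, on the log2 CPM scale, for the scores of the visual cycle (7.22, against 8.37 in the next eye), melanin pigment (6.88 against 8.05), RPE transport (7.15 against 8.37), secreted and Bruch membrane proteins (8.48 against 9.23), the lysosome (8.17 against 8.82), fatty acid oxidation and ketogenesis (6.43 against 6.86) and complement (3.36 against 4.14). It was also the lowest for *Trf* (12.33 against 13.89), *Apoe* (11.30 against 12.34), *Clu* (11.92 against 12.78), *Bsg* (10.78 against 11.66), *Clba1* (4.64 against 5.65) and *Pltp* (8.42 against 9.62).

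Eye 8 was the highest for *Lars2* (15.94 against 11.58), *AA474408* (12.60 against 8.72), *Mir6236* (11.77 against 7.88), *Gm12895* (10.67 against 6.36), *Gm12896* (10.67 against 6.36), *Gm15564* (9.75 against 5.43), *Myzap* (7.81 against 3.67) and *Tmem170* (7.72 against 1.71). *Gm12895* and *Gm12896* share nearly all of their sequence and count as 1 measurement.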

How the results depend on the processing

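No paired analysis was possible because the control eyes form a single group. The 946 genes called on the RPE marker score became 2046 with DESeq2 (929 rose, 1117 fell), 475 with no count filter (72 rose, 403 fell), 3599 with log2 library total as a further term (2234 rose, 1365 fell) and 4548 with the oxidative phosphorylation score as a further term (2300 rose, 2248 fell). A score of *Rpe65* and *Rlbp1* called 744 (233 rose, 511 fell), 372 of them among the 946. Leaving out 1 eye gave 301 to 1286, with 260 of the 301 and 537 of the 1286 shared with the 946. The 1 gene on the photoreceptor score became 118 with DESeq2, 0 with no count filter, 0 with the score's genes left out of the adjustment, 8 with cone genes only and 0 to 2 without 1 eye. With no gene called by edgeR after the score's genes were left out, 1313 genes still had an unadjusted p under 0.05. Of list score pairs, 5 passed with Pearson's r and 3 with Spearman's rho, and 0 to 8 without 1 eye. Over named slopes and pairs, 844 values under alternatives kept their side of the threshold, 293 lost and 7 gained significance, and none changed direction. The other 50 of 82 summary values stayed within 1.5 times or 1 SD. The cause of these changes was not tested. Counts at the depth of eye 8 limit genes of few counts such as *Best1* (17 to 100 counts).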
